A study of Mus musculus with 18 samples.

Results

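The interferon response genes described here are 40 genes that type I interferons (IFN-α and IFN-β) or the type II interferon (IFN-γ) are known to induce. They were listed by symbol with no measured value in the rule, although they were chosen with earlier results of these data known. Shares of members set beside those of all tested genes are therefore descriptions with no test. Each of the 40 was found among the 37991 genes of all 18 count files. Tests were run on the 17240 genes whose mean normalized count was 3 or more in any group, and all 40 members were among them. The RNA was that of splenic CD4+ T cells of Tg4-H2u mice, a strain with a transgenic TCR that recognizes a peptide of myelin basic protein (MBP). Each of 6 groups had 3 biological replicates, and the mice were males and females 6 to 12 weeks old. Naive (N) mice had received PBS on the same schedule on which tolerized (T) mice received escalating subcutaneous doses of the MBP Ac1-9 [4Y] peptide, 7 doses in T0 and TAg. N0 and T0 mice received a last dose of PBS 2 h before sacrifice. NAg and TAg mice received 80 μg of the peptide at that time, which is called Ag here. NPI and TPI cells were instead kept in culture for 2 h with PMA at 20 ng/ml and the calcium ionophore A23187 at 2 μM, together called PI. PI bypasses the TCR, and no untreated cultured cells are analysed here, so that PI and culture cannot be told apart. Since nearly all T cells of this strain share a receptor, and the cells were enriched with magnetic beads without a further sort, the groups are a model of a single specificity with some other spleen cells included.

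Type I interferons are made by virus-infected and sensing cells and act through the receptor chains IFNAR1 and IFNAR2, the kinases JAK1 and TYK2, and a complex with STAT2 and IRF9 that binds the interferon-stimulated response element (ISRE). IFN-γ is made mainly by activated T cells and NK cells and acts through IFNGR1, IFNGR2, JAK1 and JAK2, and its target genes carry the gamma-activated site (GAS). Its best known targets are the guanylate-binding proteins (GBPs), the immunity-related GTPases (IRGs), IRF1 and the antigen processing genes, while the IFIT, OAS and MX genes are classical targets of type I interferons, and many genes respond to both kinds.

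To show the elements by which these genes are known to be controlled, promoter sequences from 250 bases before to 50 bases after the start were taken from RefSeq (GRCm38.p6) for the 28 members that had an entry. Entries were not at hand for *Mx1*, *Mx2*, *Usp18*, *Oas2*, *Zbp1*, *Iigp1*, *Parp9*, *Parp14*, *Dhx58*, *Gbp6*, *Gbp9* and *Rtp4*. For the ISRE, GAAA followed by any 2 bases and again GAAA was searched on both strands, and for the GAS the letters TTCNNNGAA, which read the same on both strands. An ISRE match was found in 19 of the 28 members (67.9%) and in 3.99% of 27025 genes with a promoter entry, and a GAS match in 9 (32.1%) and in 9.55%. The following 30-base windows are written 5′ to 3′ on the strand of the gene, with the match in capitals, and stand for the families whose values are given below. A match is a description of the sequence and not a bound site, and ISRE and GAS matches can share bases, as they did in *Bst2*.
Gbp2, ISRE, chr3:142620594-142620623, plus strand: actcttttagTTTCACTTTCactgtcttaa
Gbp3, ISRE, chr3:142559989-142560018, plus strand: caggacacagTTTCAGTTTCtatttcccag
Gbp5, ISRE, chr3:142496759-142496788, plus strand: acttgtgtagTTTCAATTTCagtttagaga
Gbp5, GAS, chr3:142496872-142496901, plus strand: tggccgttatTTCTCAGAAccaagcacaga
Gbp7, ISRE, chr3:142530273-142530302, plus strand: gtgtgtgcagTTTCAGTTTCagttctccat
Gbp7, GAS, chr3:142530239-142530268, plus strand: aagcagaagcTTCTCAGAAagtcagcacaa
Igtp, ISRE, chr11:58199512-58199541, plus strand: tctaggaactGAAACTGAAAgctgttcggg
Irgm1, ISRE, chr11:48871425-48871454, minus strand: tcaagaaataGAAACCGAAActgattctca
Isg15, ISRE, chr4:156200871-156200900, minus strand: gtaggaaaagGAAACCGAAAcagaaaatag
Ifit1, ISRE, chr19:34640794-34640823, plus strand: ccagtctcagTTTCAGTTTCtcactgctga
Ifit2, GAS, chr19:34550444-34550473, plus strand: catgggagcTTCCTGGAAgaatggataaaa
The GBP members on chromosome 3 thus all carried an ISRE match, the IRG genes shown carried it within 40 bases of the start, and *Ifit2* had a GAS match and no ISRE match in this window. After Ag in naive cells, which is described further on, 32.1% of all tested genes rose and 33.4% fell. Of the 19 members with an ISRE match 12 rose and 2 fell, and of the 9 without one 4 rose and 2 fell. With a GAS match, 7 of 9 rose and 1 fell, and without one 9 of 19 rose and 3 fell. These counts are a description with no test.

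Total counts were between 10758571 and 24119489 per library. Normalized counts were obtained by dividing counts by TMM-scaled library sizes, relative to their mean. All 10 T cell markers were detected in every library, and their summed normalized counts were between 30674 and 69462. Detection alone does not set T cells apart, since no B cell or NK cell marker was at 0 in any group either. *Cd28* was the highest T cell marker after PI, with means of 26000 in NPI and 26030 in TPI against 4260 in N0. With Ag, 1 of the 10 rose and 9 fell in naive cells, and 0 rose and 8 fell in tolerized cells. Of all tested genes 32.1% and 33.4%, and 29.9% and 29.8%, did so. Markers of other spleen cells were detected as well and are given beside the results that they move with. In bulk RNA, fewer cells of a type and less RNA per cell cannot be told apart. By the reads of Y-linked genes, 9 libraries came from males and 9 from females, and all NPI libraries were from males while all N0 and NAg libraries were from females. The members deviated together in the naive libraries. N0 replicate 2 lay below the mean of its group for 39 of the 40 members and NAg replicate 2 for all 40, with median deviations of −0.32 and −0.34 on the log2 scale, while N0 replicate 3 lay above for all 40. In the tolerized groups the libraries lay closer together, and the median deviation farthest from 0 was −0.097, in TPI replicate 3.

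In RPKM, which are reads scaled by exon length and library size and allow levels of different genes to be compared, the members covered a wide range. *Igtp*, an IRG, had the highest mean over all libraries at 106 RPKM, followed by *Tap1*, a subunit of the peptide transporter of MHC class I, at 69.6. They were followed by *Gbp9* at 54.6, *Gbp2* at 48.7 and *Parp14*, an ADP-ribosyltransferase, at 44.0. The lowest were *Ifi44* at 0.326, *Rsad2*, which encodes viperin, at 1.63, and *Mx2* at 2.41. In N0 alone *Tap1*, at 50.04 ± 5.27 RPKM, *Gbp9*, at 47.5 ± 6.48, and *Igtp*, at 46.1 ± 6.85 (SD, n = 3), did not differ beyond their spread. Several members lie in clusters in the genome (NCBIM37). *Gbp5*, *Gbp7*, *Gbp3* and *Gbp2* follow each other between 142159864 and 142300972 on chromosome 3, and *Gbp9* and *Gbp6* lie between 105507413 and 105722718 on chromosome 5. *Ifit2*, *Ifit3* and *Ifit1* lie between 34625184 and 34724499 on chromosome 19, and *Oas2*, *Oas3* and *Oas1a* between 121180342 and 121357536 on chromosome 5. Because the members of these families are similar in sequence, the split of reads between them is uncertain. The counting mode and the use of strand are not given in the sources used here. Therefore, values are also uncertain where exons overlap a gene on the opposite strand, as for *Tap1* with *Psmb9*, *Parp9* with *Dtx3l* (458 bp), *Ifi35* (290 bp), *Eif2ak2* (174 and 47 bp), *Dhx58* (141 bp) and *Oasl1* (38 bp).

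**Figure D1:**
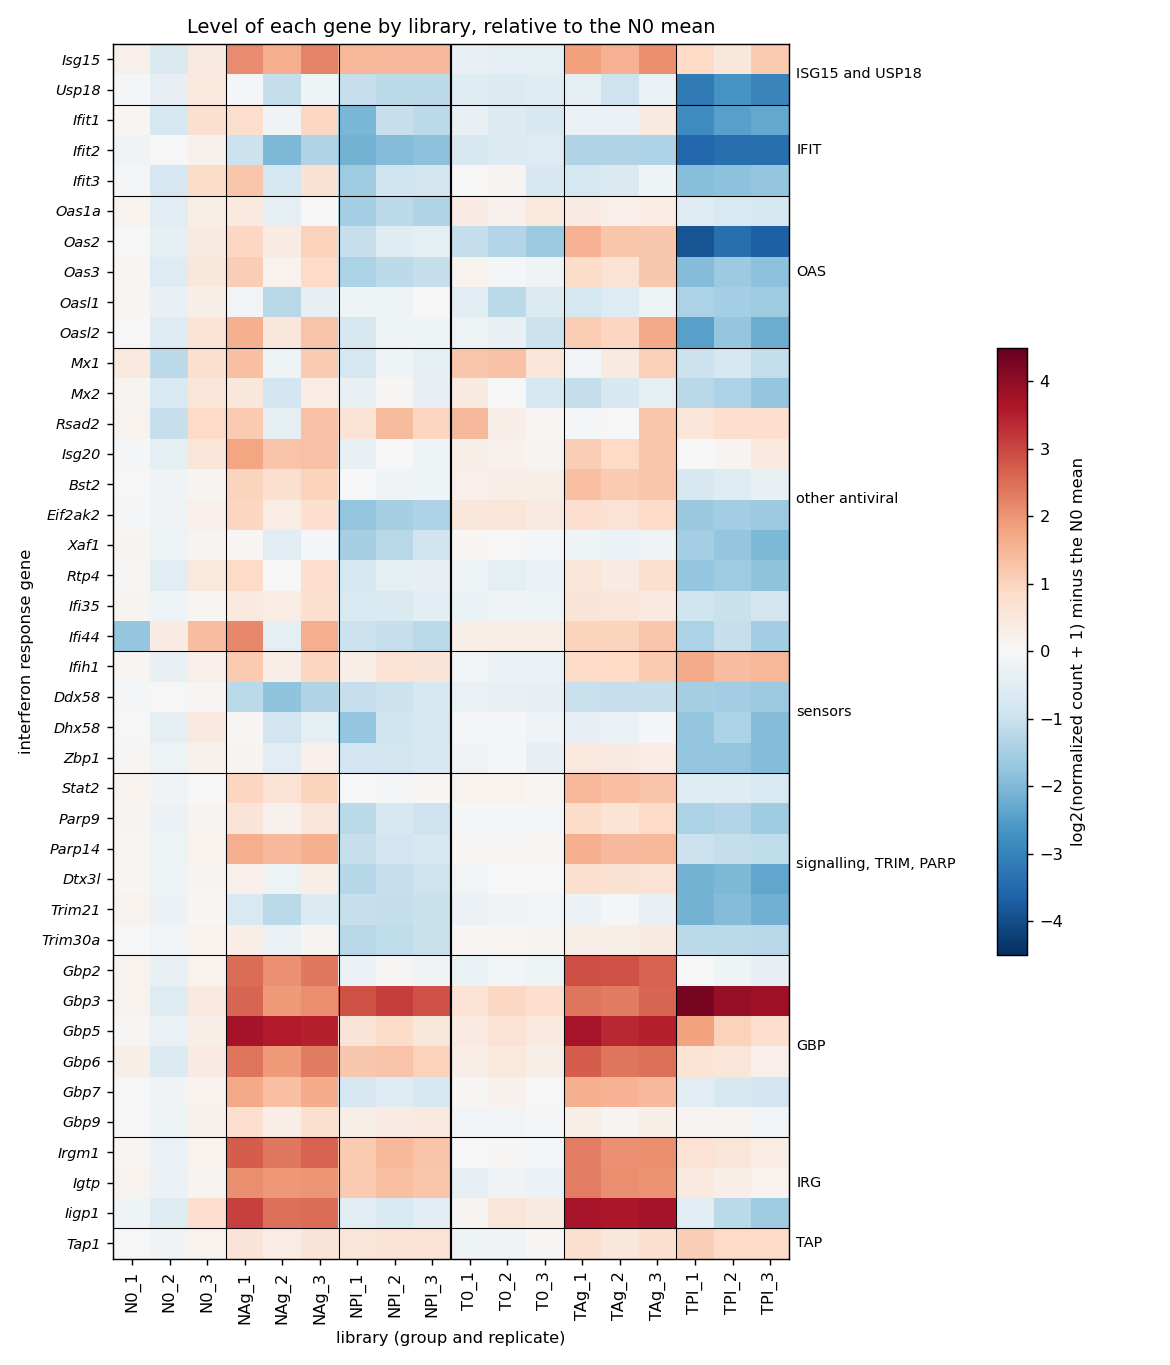
Level of each of the 40 interferon response genes (rows, by family) in each of the 18 libraries (columns), as log2(normalized count + 1) minus the mean of the 3 N0 libraries. Red is above N0 and blue below; the GBP and IRG rows are red in all NAg and TAg libraries, while most other rows are blue in NPI and darker blue in TPI.

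The mean level of the module, taken as the mean over the 40 genes of log2(normalized count + 1), was 8.86, 8.47 and 9.20 in the N0 libraries and 9.92, 9.18 and 9.77 in NAg. It was 8.86, 8.82 and 8.71 in T0 and 9.68, 9.60 and 9.82 in TAg. The TAg libraries lay above all T0 libraries, whereas the lowest NAg library lay just below the highest N0 library. After PI the level was 8.35, 8.60 and 8.58 in NPI, which overlapped N0, and 7.99, 7.999 and 7.86 in TPI, below every other library. The level therefore rose by a mean of 0.78 with Ag in naive and 0.90 in tolerized cells, and decreased by 0.335 and 0.845 with PI. These are descriptions of the module as a whole, and they hide opposite changes of its members, which are described next.

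**Figure D2:**
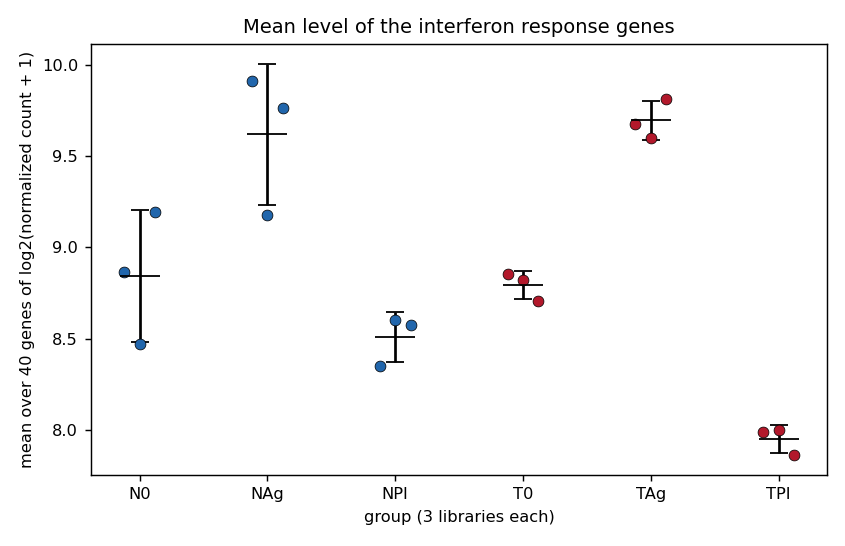
Mean over the 40 interferon response genes of log2(normalized count + 1) in each library (points, blue for naive and red for tolerized), with the mean (line) and SD (bars) of each group of 3 libraries. The mean was highest in TAg (9.70 ± 0.11) and NAg (9.62 ± 0.39) and lowest in TPI (7.95 ± 0.08), and N0 and NAg had the widest spread; the axis does not start at 0.

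To ask how the members respond to Ag, NAg was compared with N0 and TAg with T0. Throughout, a gene rose or fell if its adjusted p was under 0.05 by the Benjamini-Hochberg method over all genes tested with edgeR's quasi-likelihood F test, and log2 fold changes are given with their standard errors. In naive cells, 23 of the 40 members rose and 4 fell, where 32.1% of all tested genes rose and 33.4% fell. In tolerized cells 24 rose and 2 fell, where 29.9% of all tested genes rose and 29.8% fell. The median log2 fold change of the members was 0.69 in naive and 0.79 in tolerized cells, and that of all tested genes 0.00 and −0.05. In naive cells the members' median was 0.385 without N0 replicate 2 and 0.285 with scores of myeloid and erythroid markers as covariates. Of the members that rose, 22 did so in both cell states, which is 95.7% of those in naive and 91.7% of those in tolerized cells. These comparisons share no library. The matching shares over all tested genes were not computed, so this overlap is not given as particular to the members. When a 2-fold change and a mean count above 50 in the higher group were required as well, 12 rose and 2 fell in naive cells (14.2% and 16.2% of all tested genes), and 14 rose and 0 fell in tolerized cells (12.1% and 11.3%). Summed macrophage and monocyte markers were 612 to 932 in N0, 652 to 2521 in NAg, 1371 to 1780 in T0 and 1023 to 1489 in TAg. Most of the sum in T0 and TAg was *Lyz2*, with means of 207 in N0, 1082 in T0 and 845 in TAg. The highest marker of this list in NAg was *Vcam1*, which was uneven at 675, 152 and 72.6. Summed NK cell markers were 612 to 1356 in N0, 1001 to 2258 in NAg, 1091 to 1298 in T0 and 1387 to 1917 in TAg. Of these 7, 2 rose and 0 fell in each state. Summed neutrophil markers were 76 to 187, 146 to 423, 1820 to 3198 and 2413 to 4435. Of these 10, 3 rose in naive and 2 in tolerized cells, and 0 fell. With the scores of myeloid and erythroid markers as covariates 18 members rose and 8 fell in naive cells, and 26 rose and 2 fell in tolerized cells.

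All 6 GBPs rose with Ag in both cell states. GBPs are GTPases that assemble on the vacuoles of intracellular microbes. *Gbp5*, which also promotes inflammasome assembly, had normalized counts of 301, 232 and 343 in N0 and 3875, 3464 and 3268 in NAg. In T0 it had 376, 450.4 and 388 and in TAg 3821, 3065 and 3289. The groups were far apart in both states, and the log2 fold changes were 3.60 (standard error 0.24, adjusted p = 8.06e-09) and 3.07 (standard error 0.23, adjusted p = 4.22e-08), the largest among the members in naive cells. *Gbp2* rose from 718, 510.5 and 708 to 3684, 2684 and 3343 in naive cells and from 515, 586 and 548 to 4743, 4612 and 4001 in tolerized cells. Every stimulated library exceeded every resting one, and the log2 fold changes were 2.32 ± 0.14 and 3.02 ± 0.15. *Gbp3* rose by 2.19 ± 0.24 and 1.67 ± 0.22, *Gbp6* by 2.18 ± 0.22 and 2.20 ± 0.22, and *Gbp7* by 1.57 ± 0.10 and 1.46 ± 0.10. *Gbp9* rose least of the family. It had 2319, 2058 and 2697 in N0 and 4004, 2862 and 3865 in NAg, and 2157, 2169 and 2240.4 in T0 and 2828, 2530.0 and 2833 in TAg. The groups did not overlap, although the log2 fold changes were only 0.60 (standard error 0.11, adjusted p = 7.67e-05) and 0.32 (standard error 0.11, adjusted p = 0.0182), and the latter did not pass in 5 of 6 fits without 1 of the libraries.

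All 3 IRGs, GTPases that act on the same vacuoles, rose as well. *Iigp1*, an effector IRG, had normalized counts of 333, 259.9 and 649.5 in N0 and 3258, 2149 and 2209 in NAg, and 421, 559 and 509 in T0 and 5082, 4838 and 5175 in TAg. Its log2 fold changes were 2.61 (standard error 0.32, adjusted p = 7.11e-06) and 3.34 (standard error 0.32, adjusted p = 7.71e-07), with no overlap between groups. *Irgm1*, a regulatory IRG, rose from 1007, 783 and 1062 to 6244, 4893 and 5873 in naive cells, by 2.58 ± 0.12, and by 2.14 ± 0.12 in tolerized cells. *Igtp*, another regulatory IRG, rose from 1399, 1055 and 1366 to 5392, 4932 and 5054 and from 978, 1143 and 1044 to 6211, 5365 and 5174. Its libraries were tight in each group, and the log2 fold changes were 2.01 ± 0.10 and 2.40 ± 0.10.

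The other members were divided. *Isg15*, a ubiquitin-like modifier, had 78.3, 41.8 and 89.2 in N0 and 295, 207 and 319 in NAg, and 52.2, 48.6 and 49.9 in T0 and 241, 197 and 286 in TAg. It rose by 1.97 (standard error 0.22, adjusted p = 1.49e-07) and 2.26 (standard error 0.23, adjusted p = 3.9e-08), with no overlap. *Usp18*, the protease that removes ISG15 and damps the type I receptor, did not pass the test in either state, with log2 fold changes of −0.43 (adjusted p = 0.135) and 0.03 (adjusted p = 0.919). Among the 6 signalling genes and ubiquitin or ADP-ribose enzymes, *Stat2* rose by 0.87 ± 0.09 and 1.25 ± 0.09, *Parp14* by 1.55 ± 0.09 and 1.476 ± 0.09 and *Parp9* by 0.45 ± 0.13 and 0.82 ± 0.13. *Parp14* had 3950.4, 3225 and 4146 in N0 and 11579, 10336 and 11335 in NAg, the highest normalized counts of any member in that group. *Tap1* rose by 0.48 ± 0.09 and 0.76 ± 0.09. Of the 10 other antiviral effectors, 5 rose in naive cells, namely *Isg20*, an exonuclease, *Bst2*, which encodes tetherin, *Eif2ak2*, which encodes the kinase PKR, *Rtp4* and *Ifi35*. All of these except *Eif2ak2* also rose in tolerized cells, where its log2 fold change was 0.27 (adjusted p = 0.0609).

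The OAS family makes the oligoadenylates that activate RNase L, and 3 of its 5 members rose in both states. *Oas2* had normalized counts of 630.0, 480.2 and 824 in N0 and 1206, 821 and 1299 in NAg, and 296, 251 and 202 in T0 and 1854, 1511 and 1464 in TAg. The naive groups met, since the lowest NAg library was just below the highest N0 library, while the tolerized groups were far apart. The log2 fold changes were 0.78 (standard error 0.22, adjusted p = 0.00715) and 2.68 (standard error 0.24, adjusted p = 2.07e-07). *Oasl2* rose by 1.13 ± 0.34 and 1.78 ± 0.34 and *Oas3* by 0.71 ± 0.27 and 0.94 ± 0.27. The rise of *Oas3* in naive cells was lost in 4 of the 6 fits without 1 library, as was that of *Rtp4*.

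The 3 IFIT genes, whose products bind foreign RNA, did not rise. *Ifit2* fell in both states. Its normalized counts were 969.8, 1082 and 1231 in N0 and 554, 270.2 and 427 in NAg, and 661, 706 and 729.9 in T0 and 430.4, 428 and 420.1 in TAg. The groups did not overlap, and the log2 fold changes were −1.39 (standard error 0.17, adjusted p = 9.7e-07) and −0.71 (standard error 0.17, adjusted p = 0.00129). *Ifit1* had 359.6, 198 and 556 in N0 and 596, 308 and 659 in NAg, which overlapped, and a log2 fold change of 0.49 (adjusted p = 0.27). *Ddx58*, which encodes the RNA sensor RIG-I, was the member that fell most in naive cells. It had 2317, 2391 and 2511 in N0 and 1038, 685 and 934 in NAg, and 1961, 1925 and 1872 in T0 and 1187, 1158 and 1181 in TAg. No library overlapped, and the log2 fold changes were −1.44 (standard error 0.10, adjusted p = 1.23e-11) and −0.71 (standard error 0.10, adjusted p = 1.71e-06). In contrast, *Ifih1*, which encodes the related sensor MDA5, rose by 0.86 ± 0.20 and 1.23 ± 0.20. *Trim21*, a cytosolic antibody receptor and ubiquitin ligase, fell in naive cells by 0.82 (standard error 0.12, adjusted p = 3.77e-06), and *Oasl1* by 0.54 (standard error 0.23, adjusted p = 0.0465). The fall of *Oasl1* was lost in 4 of the 6 fits without 1 library. *Mx1*, *Mx2*, *Rsad2*, *Xaf1*, *Ifi44*, *Dhx58* and *Oas1a* did not pass the test in either state. *Mx1*, a GTPase that blocks orthomyxoviruses, had 144, 47.0 and 178 in N0 and 274, 94.0 and 239.8 in NAg, where the spread within a group was wide and the groups overlapped.

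**Figure D3:**
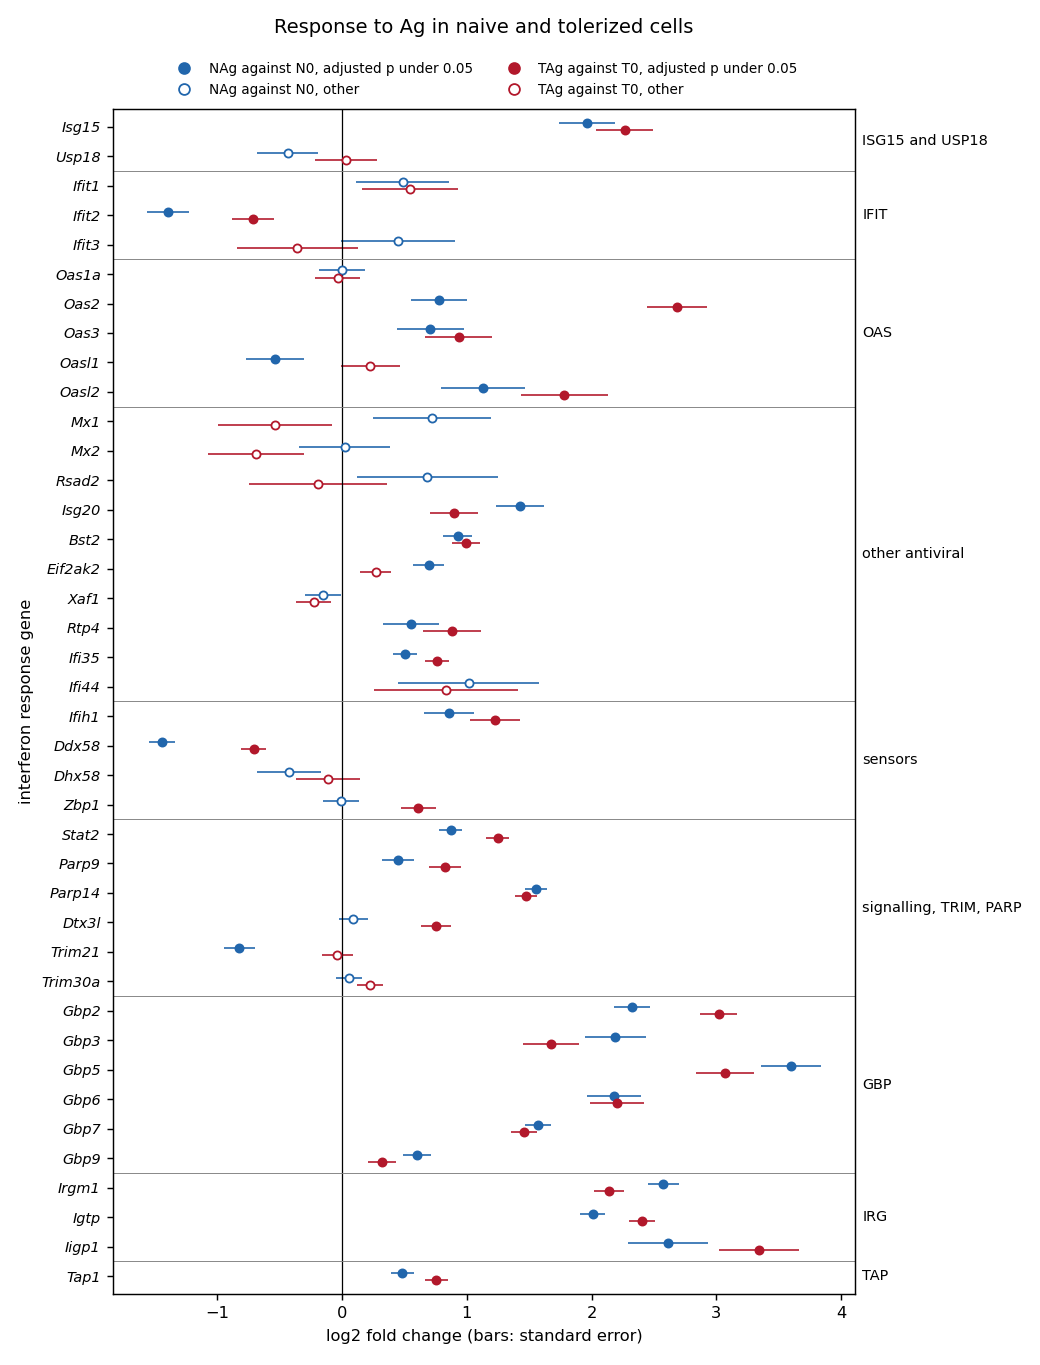
Log2 fold change with Ag of each interferon response gene in naive cells (NAg against N0, blue) and tolerized cells (TAg against T0, red), with standard errors as bars and filled points where the adjusted p was under 0.05. All GBP and IRG points lie to the right of 0, up to 3.60 for *Gbp5* in naive cells, while *Ifit2* and *Ddx58* lie to the left in both states.

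Whether the response to Ag differed between cell states was tested as the difference of both responses in the same model. The response was more positive in tolerized cells for 9 of the 40 members and more negative for 0, where 14.6% and 7.09% of all tested genes were. The median difference over the members was 0.24, and 0.05 over all tested genes. With the limits on fold and count, 1 member was more positive, *Oas2*, and 0 were more negative (3.05% and 2.23% of all tested genes). *Oas2* differed most, by 1.90 (standard error 0.32, adjusted p = 0.000831). For *Trim21* the difference was 0.79 (standard error 0.17, adjusted p = 0.00203). It had 913, 682 and 857 in N0 and 501, 349 and 536 in NAg, but 669.6, 726 and 738 in T0 and 683, 758 and 643 in TAg. The level was thus lower after Ag in naive cells, while the tolerized groups overlapped. For *Ddx58* the difference was 0.73 (standard error 0.14, adjusted p = 0.000607), a smaller fall in tolerized cells, and for *Dtx3l*, a ubiquitin ligase that works with PARP9, 0.66 (standard error 0.17, adjusted p = 0.00816). These 4 differences held in all fits that left out 1 library and under the other 7 alternatives. *Gbp2* differed by 0.69 (adjusted p = 0.019), and this was lost only without TAg replicate 1. The differences of *Ifit2* (0.68), *Zbp1* (0.62), *Igtp* (0.39) and *Stat2* (0.37) were lost in 9, 6, 8 and 5 of the 12 fits without 1 library. Without TAg replicate 1, 4 members were more positive and 1 more negative, and without TAg replicate 2, 5 were more positive. Without N0 replicate 3 the counts were 5 and 3, without NAg replicate 2 they were 7 and 3, with DESeq2 7 and 2, and with its size factors 5 and 1. With the sex of the mice as a term 5 were more positive, and with scores of myeloid and erythroid markers as covariates 15 were.

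In the stimulated cells themselves, 8 members were higher and 2 lower in TAg than NAg, where 20.9% of all tested genes were higher and 18.5% lower, and 0 of the 40 also reached a 2-fold change in either direction (3.61% and 2.05% of all tested genes). *Iigp1* differed most among those that passed, by 0.99 (standard error 0.29, adjusted p = 0.0169), and its TAg libraries, at 5082, 4838 and 5175, lay above those of NAg. *Dtx3l* (0.59), *Trim21* (0.59), *Stat2* (0.50), *Gbp2* (0.46), *Ddx58* (0.41), *Bst2* (0.33) and *Zbp1* (0.41), a sensor of Z-form nucleic acids, were also higher. *Irgm1* and *Gbp9* were lower, with log2 fold changes of −0.44 ± 0.11 and −0.39 ± 0.11. Of these 10, *Stat2* and *Irgm1* passed in all fits without 1 library and under the other 7 alternatives. Without NAg replicate 1, 11 members were higher and 1 lower, and without NAg replicate 2, 4 were higher and 4 lower and the median was −0.079. Without N0 replicate 2 and NAg replicate 2, chosen after seeing the data, 6 were higher and 6 lower. *Ifit3* stood apart from the other members, over 3 median absolute deviations below their median of 0.08, at −1.11, but did not pass the test (adjusted p = 0.0854). All 10 neutrophil markers were higher in TAg than NAg, with summed normalized counts of 2413 to 4435 and 146 to 423. Of the 11 macrophage and monocyte markers, in contrast, 1 was higher and 8 were lower. The myeloid score joins both lists. With scores of myeloid and erythroid markers as covariates 1 member was higher and 6 lower.

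To ask how the members respond when the receptor is bypassed, NPI was compared with N0 and TPI with T0. These comparisons use the same resting libraries as those with Ag. More members fell than rose. In naive cells 8 rose and 20 fell, where 28.6% of all tested genes rose and 32.7% fell, and in tolerized cells 7 rose and 28 fell, where 32.0% and 36.3% did. The median log2 fold change of the members was −0.67 and −1.27, and that of all tested genes −0.06 and −0.10. The members' median in naive cells was −0.43 without N0 replicate 3. The 20 members that fell in naive cells all fell in tolerized cells, where *Oasl1*, *Oasl2*, *Mx1*, *Mx2*, *Bst2*, *Ifi44*, *Stat2* and *Iigp1* fell in addition. Here, too, the overlap over all tested genes was not computed. With the limits on fold and count, 5 rose and 12 fell in naive cells (10.1% and 10.3% of all tested genes), and 4 rose and 22 fell in tolerized cells (13.3% and 13.7%). With scores of myeloid and erythroid markers as covariates, 9 rose and 8 fell in naive and 7 rose and 9 fell in tolerized cells, and the members' medians were 0.143 and −0.174. Summed macrophage and monocyte markers were 612 to 932 in N0, 374 to 512 in NPI, 1371 to 1780 in T0 and 695 to 798 in TPI. Of these 11, 1 rose and 6 fell in naive cells, and 1 rose and 4 fell in tolerized cells. Summed neutrophil markers were 76 to 187 in N0, 65 to 173 in NPI, 1820 to 3198 in T0 and 398 to 676 in TPI. Of these 10, 2 rose and 6 fell in naive cells, and 0 rose and 8 fell in tolerized cells. Summed markers of NK cells were 612 to 1356 in N0, 835 to 1461 in NPI, 1091 to 1298 in T0 and 430 to 707 in TPI. Of these 7, 1 rose and 1 fell in naive cells, and 0 rose and 4 fell in tolerized cells. All NPI and TPI libraries were from males, as were 2 of the 3 T0 libraries, and with sex as a term, estimated within T0 and TAg, 6 rose and 18 fell in naive and 7 rose and 27 fell in tolerized cells.

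All 3 IFIT genes fell in both states, although the fall of *Ifit3* in naive cells was lost in 5 of the 6 fits without 1 library. *Ifit2* had normalized counts of 245, 278 and 302 in NPI and 92.9, 103 and 102 in TPI, below every resting library given above, with log2 fold changes of −1.99 (standard error 0.17, adjusted p = 2.17e-08) and −2.81 (standard error 0.19, adjusted p = 5.19e-10). *Ifit1* had 82.2, 167 and 151 in NPI and 47.7, 62.6 and 67.5 in TPI and fell by 1.476 and 1.98 on the log2 scale. *Usp18* had 469.5, 382 and 693 in N0 and 240.3, 221 and 219 in NPI, and 339.7, 324 and 342 in T0 and 54.1, 76.8 and 62.4 in TPI. The groups were separate in both states, and the log2 fold changes were −1.18 (standard error 0.25, adjusted p = 0.000849) and −2.39 (standard error 0.28, adjusted p = 2.98e-06). With the marker scores as covariates the falls of *Ifit1* and *Usp18* no longer passed the test, in either state, while those of *Ifit2* did.

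In the OAS family all 5 members fell in tolerized cells and 3 in naive cells. *Oas2* had 306, 435 and 469 in NPI and 42.01, 59.3 and 48.6 in TPI, the latter far below T0, with log2 fold changes of −0.68 (standard error 0.23, adjusted p = 0.0215) and −2.34 (standard error 0.30, adjusted p = 8.48e-06). Of the 6 signalling genes and enzymes, all fell in tolerized cells and 5 in naive cells. *Dtx3l* had 2473, 1969.9 and 2534 in N0 and 951, 1127 and 1221 in NPI, and 2113, 2276 and 2266 in T0 and 527, 563 and 452 in TPI. Its groups did not overlap, and it fell by 1.08 (standard error 0.12, adjusted p = 2.96e-07) and 2.11 (standard error 0.13, adjusted p = 2.58e-11). *Stat2* had 1126, 908 and 1040.3 in N0 and 1031, 975 and 1083 in NPI, which overlapped, and fell only in tolerized cells by this test, by 0.73. *Eif2ak2* fell by 1.57 and 2.12, *Xaf1* by 1.2 and 1.78, and *Trim30a*, a ubiquitin ligase, by 1.14 and 1.31. These 3 were lower in every fit that left out 1 library and under the other 7 alternatives, in both states. The fall of *Oas2* in naive cells was lost in 2 of the 6 fits without 1 library, and that of *Ifi44* in tolerized cells in all 6. The former was also lost with the groups compared alone and with sex as a term. With the marker scores as covariates no fall of an OAS gene passed in either state, nor did that of *Stat2* in tolerized cells. *Gbp7* fell by 0.70 and 0.77, the only one of the 6 GBPs to do so, although it had risen with Ag. Its falls did not pass with the marker scores as covariates.

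Among the members that rose with PI, *Gbp3* rose most in both states, by over 3 median absolute deviations from the median of the members. It had normalized counts of 132, 79.3 and 163 in N0 and 875, 1047 and 869 in NPI, and 186, 231 and 201 in T0 and 2347, 1807 and 1705 in TPI. The lowest PI library was over any resting library, and the log2 fold changes were 2.89 (standard error 0.24, adjusted p = 8.12e-08) and 3.24 (standard error 0.23, adjusted p = 8.78e-09). Of its neighbours on chromosome 3, *Gbp2* did not pass the test, at −0.14 (adjusted p = 0.435) and 0.05 (adjusted p = 0.777), and *Gbp5* rose by 0.62 ± 0.24 and 0.78 ± 0.23. The rise of *Gbp5* in naive cells was lost in 4 of the 6 fits without 1 library. *Ifih1* was the other outlier in tolerized cells. It had 722, 666 and 641 in T0 and 2498, 2078 and 2252 in TPI, without overlap, and rose by 1.75 (standard error 0.20, adjusted p = 2.71e-06). In naive cells it had 849, 633 and 922 in N0 and 939, 1246 and 1179 in NPI, and the log2 fold change of 0.48 (adjusted p = 0.0511) did not pass. *Isg15* rose by 1.41 ± 0.22 and 1.31 ± 0.24, *Tap1* by 0.60 ± 0.09 and 1.04 ± 0.09, *Irgm1* by 1.32 ± 0.12 and 0.50 ± 0.12 and *Igtp* by 1.25 ± 0.10 and 0.56 ± 0.10. *Gbp6* and *Gbp9* rose in naive cells, by 1.12 ± 0.22 and 0.35 ± 0.11, and did not pass in tolerized cells.

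**Figure D4:**
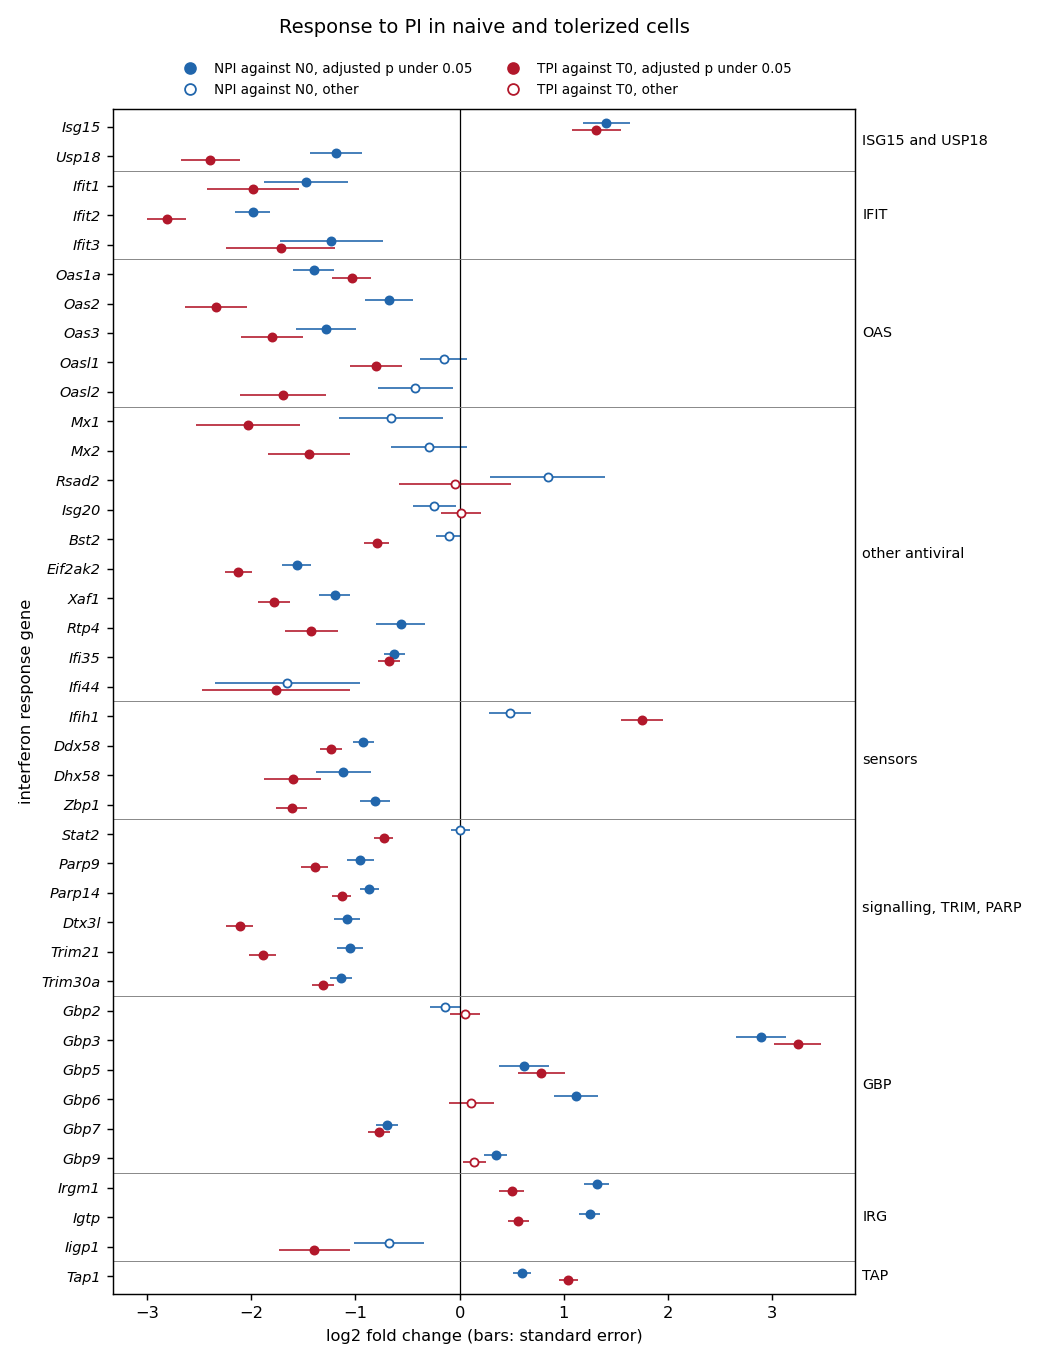
Log2 fold change with PI of each interferon response gene in naive cells (NPI against N0, blue) and tolerized cells (TPI against T0, red), with standard errors as bars and filled points where the adjusted p was under 0.05. Most points lie left of 0, down to −2.81 for *Ifit2* in tolerized cells, and *Gbp3* lies farthest to the right at 2.89 and 3.24.

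The response to PI differed between cell states for 14 members. It was more positive in tolerized cells for 2 and more negative for 12, where 12.7% and 7.52% of all tested genes were, and the median difference was −0.54 over the members and −0.04 over all tested genes. With the limits on fold and count, 1 was more positive and 4 were more negative (1.75% and 1.47% of all tested genes). The more positive ones were *Ifih1*, by 1.27 (standard error 0.28, adjusted p = 0.0059), and *Tap1*, by 0.45 (standard error 0.13, adjusted p = 0.0142). *Oas2* was the most negative at −1.67 (standard error 0.38, adjusted p = 0.00721). It was followed by *Usp18* (−1.21), *Dtx3l* (−1.03), *Gbp6* (−1), *Trim21* (−0.84), *Ifit2* (−0.82), *Irgm1* (−0.82), *Zbp1* (−0.80), *Stat2* (−0.73), *Bst2* (−0.69), *Igtp* (−0.69) and *Eif2ak2* (−0.56). The differences of *Usp18*, *Eif2ak2* and *Ifit2* were lost in 10, 10 and 9 of the 12 fits without 1 library, and that of *Gbp6* in 6. With the sex of the mice as a term, 2 were more positive and 8 more negative.

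After PI, 5 members were higher and 21 lower in TPI than NPI, where 18.2% of all tested genes were higher and 19.7% lower. The median log2 fold change was −0.58, against −0.04 over all tested genes. With the limits on fold and count, 2 were higher and 10 lower (3.38% and 2.22% of all tested genes). *Oas2* was the outlier. Its libraries had 42.01, 59.3 and 48.6 in TPI and 306, 435 and 469 in NPI, which differed by −3.03 (standard error 0.29, adjusted p = 2.19e-06) on the log2 scale. *Usp18* was lower by 1.83 (standard error 0.29, adjusted p = 0.000171), *Oasl2* by 1.82 (standard error 0.42, adjusted p = 0.00325) and *Ifit2* by 1.47 (standard error 0.19, adjusted p = 1.3e-05), each without overlap. The higher members were *Gbp3* (1.07), *Ifih1* (1.02), *Oas1a* (0.67), *Gbp5* (0.64) and *Tap1* (0.35). The difference of *Gbp5* was lost in 3 of the 6 fits without 1 library and under 4 of the other 7 alternatives. That of *Oas1a* was lost without NPI replicate 1. With the marker scores as covariates 0 members were higher and 27 lower, and the summed neutrophil markers were 65 to 173 in NPI and 398 to 676 in TPI. Because these sums do not overlap, that fit extrapolates from differences within groups.

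**Figure D5:**
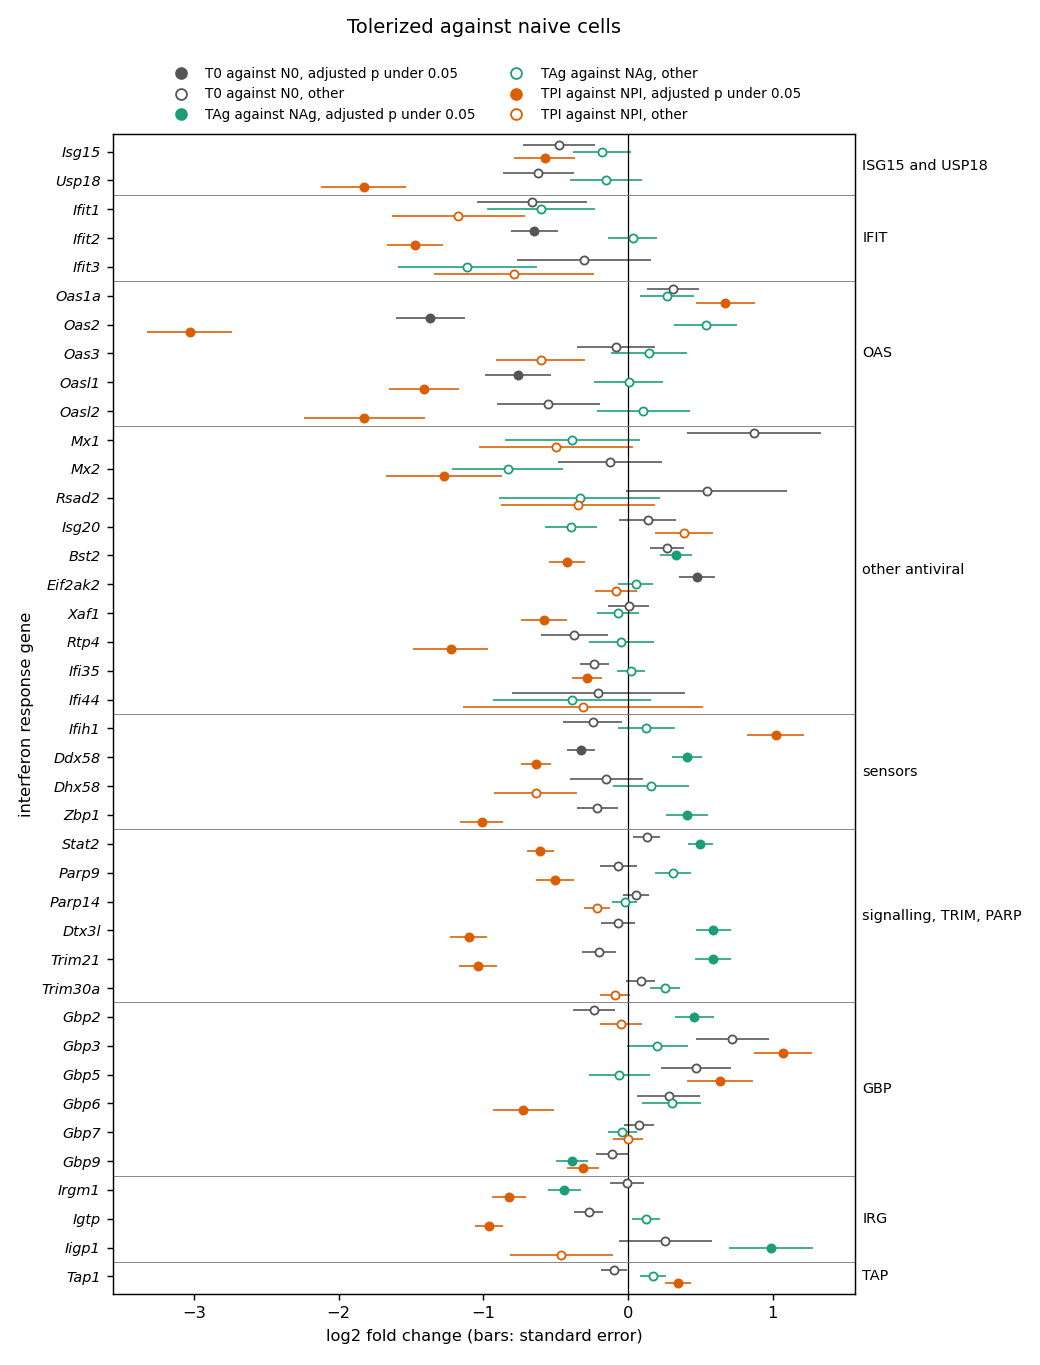
Log2 fold change of tolerized against naive cells for each interferon response gene at rest (T0 against N0, grey), after Ag (TAg against NAg, green) and after PI (TPI against NPI, orange), with standard errors as bars and filled points where the adjusted p was under 0.05. The orange points lie mostly left of 0, down to −3.03 for *Oas2*, whereas the green points lie between −1.11 for *Ifit3* and 0.99 for *Iigp1*.

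Compared directly, the PI-treated cells had lower levels of most members than the Ag-treated cells. In NPI 2 members were higher and 31 lower than in NAg, where 33.5% and 31.0% of all tested genes were. In TPI 3 were higher and 34 lower than in TAg, where 31.5% and 32.3% were. With the limits on fold and count, 0 were higher and 24 lower in NPI (14.3% and 13.1% of all tested genes), and 1 was higher and 30 were lower in TPI (12.4% and 13.1%). The largest differences in tolerized cells were those of *Oas2*, by −5.02 (standard error 0.29, adjusted p = 1.32e-09), and *Iigp1*, by −4.74 (standard error 0.35, adjusted p = 4.66e-08), both over 3 median absolute deviations from the median of −1.85. *Iigp1* had 275, 165 and 126 in TPI against the TAg values given above, from which it was far apart. *Gbp3* was higher after PI in both states, by 0.70 (standard error 0.21, adjusted p = 0.00887) and 1.57 (standard error 0.21, adjusted p = 1.01e-05). The naive difference of *Gbp3* was lost with sex as a term, and all NPI libraries were from males and all NAg libraries from females. *Ddx58* was higher in NPI than NAg (0.52) and lower in TPI than TAg (−0.53), and *Ifih1* and *Tap1* were higher in TPI than TAg (0.52 and 0.29). The difference of *Ifih1* was lost in 4 of the 6 fits without 1 library, without the filter on low counts and with sex as a term, and that of *Tap1* without TAg replicate 2 and with the marker scores. With the marker scores as covariates, 3 members were higher and 7 lower in NPI, and 2 higher and 22 lower in TPI, and the medians were −0.222 and −1.146, compared with −1.13 and −1.85 without them. Summed neutrophil markers were 146 to 423 in NAg, 65 to 173 in NPI, 2413 to 4435 in TAg and 398 to 676 in TPI. Summed macrophage and monocyte markers were 652 to 2521 in NAg, 374 to 512 in NPI, 1023 to 1489 in TAg and 695 to 798 in TPI, and summed NK cell markers 1001 to 2258, 835 to 1461, 1387 to 1917 and 430 to 707.

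At rest, few members differed between tolerized and naive cells. In T0, 1 member was higher and 4 were lower than in N0, where 8.42% of all tested genes were higher and 12% lower, and the median log2 fold change was −0.10 over the members and −0.08 over all tested genes. The members' median was 0.065 without N0 replicate 3 and −0.672 with scores of myeloid and erythroid markers as covariates. *Oas2* had 296, 251 and 202 in T0 and 630.0, 480.2 and 824 in N0. The groups did not overlap, and the difference of −1.37 (standard error 0.24, adjusted p = 0.00137) was the only one that also reached 2-fold, as 0.644% of all tested genes did in this direction. *Ifit2* was lower by 0.65 (standard error 0.16, adjusted p = 0.00908), *Oasl1* by 0.76 (standard error 0.23, adjusted p = 0.0224) and *Ddx58* by 0.33 (standard error 0.10, adjusted p = 0.022). *Eif2ak2* was higher by 0.48 (standard error 0.12, adjusted p = 0.00883). *Mx1* stood apart from the other members at 0.87, with 255, 266 and 154 in T0 and 144, 47.0 and 178 in N0, but these overlapped and the difference did not pass (adjusted p = 0.219). None of the 5 passed under every alternative. When N0 replicate 2 was left out together with NAg replicate 2, which were chosen after seeing the data, 1 member was higher and 14 were lower. All 10 neutrophil markers were higher in T0, with summed normalized counts of 1820 to 3198 against 76 to 187 in N0. Of the 11 macrophage and monocyte markers 1 was higher and 0 were lower, and 8 had negative log2 fold changes. With the marker scores as covariates 0 members were higher and 3 lower, and the difference of *Oas2* no longer passed (adjusted p = 0.108), while with the sex of the mice as a term only that of *Oas2* passed (adjusted p = 0.0135).

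The other genes of the pathway were taken from lists of ligands, receptors, signalling factors, regulators and targets, of which 136 were matched and 116 tested. Of the 18 matched ligands only *Ifng* reached the mean count of 3 in a group that a test required, and *Ifnb1* had at most 1 read in any library. *Ifng*, the gene for IFN-γ, had mean normalized counts of 48.4 ± 25.7 in N0, 932 ± 583 in NAg and 4950 ± 1046 in NPI, and 119.9 ± 7.94 in T0, 904 ± 210.2 in TAg and 8263 ± 2614 in TPI (SD, n = 3). It rose with Ag by 4.25 ± 0.53 and 2.92 ± 0.46 and with PI by 6.66 ± 0.54 and 6.10 ± 0.49, while more members fell than rose with PI. No difference between cell states passed the test for *Ifng* (adjusted p = 0.165 at rest, 0.961 after Ag and 0.142 after PI).

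Of the 6 receptors 5 fell with Ag in each state, where 33.4% of all tested genes fell in naive and 29.8% in tolerized cells. *Ifnar1* fell by 1.82 and 1.38, *Ifnar2* by 0.29 and 0.63, *Ifngr1* by 0.83 and 1.88, and *Ifngr2* by 1.65 and 0.56. With PI, 2 of the 6 receptors rose and 2 fell in naive cells, where 28.6% of all tested genes rose and 32.7% fell. In tolerized cells 3 rose and 2 fell, where 32.0% and 36.3% did. *Ifngr2* rose by 2.04 ± 0.13 and 1.58 ± 0.13 and *Ifngr1* by 0.86 ± 0.16 and 0.78 ± 0.16. The lowest log2 fold change of a receptor with PI was −0.827 in naive and −1.104 in tolerized cells. At rest 4 of the 6 receptors were higher and 1 was lower in tolerized cells, with log2 fold changes from −1.29 to 2.585. The lower one was *Ifngr2*, with 279.7 ± 63.3 in T0 and 686 ± 96.9 in N0, by −1.29 (standard error 0.14, adjusted p = 3.02e-06). Among the higher ones was *Ifngr1*, by 0.93 (standard error 0.16, adjusted p = 0.00106). *Jak2* rose by 3.71 ± 0.10 and 3.46 ± 0.10 with Ag, the largest rise of its list. *Irf1*, itself a target of IFN-γ, rose with Ag by 1.39 ± 0.10 and 1.93 ± 0.10 and with PI by 3.23 ± 0.11 and 1.96 ± 0.10. *Irf7* and *Irf9*, which serve the type I response, did not pass with Ag, at −0.01 and −0.07 in naive and 0.02 and 0.03 in tolerized cells. *Socs1*, an inhibitor of JAK kinases, rose with Ag by 4.72 ± 0.12 and 3.61 ± 0.12, the smaller rise in tolerized cells differing by −1.11 (standard error 0.16, adjusted p = 3.81e-05). In total, 49 of the 116 tested pathway genes rose and 46 fell with Ag in naive cells, where 32.1% and 33.4% of all tested genes did, and 56 rose and 34 fell in tolerized cells, where 29.9% and 29.8% did. With PI 40 rose and 49 fell in naive cells, where 28.6% and 32.7% of all tested genes did, and 42 rose and 57 fell in tolerized cells, where 32.0% and 36.3% did.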

How the data were processed

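The authors aligned paired-end reads of rRNA-depleted total RNA to mm9 (NCBIM37) with TopHat 2.1.1 and deposited 1 file of raw counts per gene from HTSeq-count 0.9.1 for each of 18 libraries. The counting mode and strand setting are not given in the sources used here. The counts were tested with edgeR 4.0.16 in R 4.3.3, with robust quasi-likelihood F tests on 6 group means over all libraries and TMM scaling (factors 0.736 to 1.38). A gene entered the tests if the mean normalized count of any group reached 3, and p-values were adjusted over all 17240 by the Benjamini-Hochberg method. RPKM used the union of exons. The members and lists were chosen with earlier results of these data known. Any member could be named, outliers being those over 3 scaled median absolute deviations from the members' median; of the pathway lists, *Ifng*, *Ifnb1*, the receptors, *Irf1*, *Irf7*, *Irf9*, *Socs1* and the largest rise and fall per list. Another gene that this rule names is not reported here. The code was tested on simulated data. The alternatives were DESeq2 1.42.0, its size factors, no filter, the groups compared alone, a replicate block, marker scores, sex, and each library left out. Each group had its own mean, so the effect of a marker score was estimated from differences within groups of 3 libraries. Fits with these scores therefore extrapolate where groups differ in their markers, and are not values corrected for cell composition. Total counts were 10758571 to 24119489 per library. At similar total counts, the SD of the module level over 3 libraries was 0.363 in N0 and 0.077 in T0.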

Additional observations from a re-analysis of the deposited data

Results flagged for a closer look

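The response of several members differed between naive and tolerized cells when the difference itself was tested, as tolerized minus naive on the log2 scale with its standard error (edgeR, Benjamini-Hochberg adjusted over all tested genes). For Ag, 9 members were more positive in tolerized cells. The differences were 1.90 (standard error 0.32, adjusted p = 0.000831) for *Oas2*, 0.79 (standard error 0.17, adjusted p = 0.00203) for *Trim21*, 0.73 (standard error 0.14, adjusted p = 0.000607) for *Ddx58* and 0.69 (standard error 0.20, adjusted p = 0.019) for *Gbp2*. They were 0.68 (standard error 0.24, adjusted p = 0.0491) for *Ifit2*, 0.66 (standard error 0.17, adjusted p = 0.00816) for *Dtx3l*, 0.62 (standard error 0.20, adjusted p = 0.0367) for *Zbp1*, 0.39 (standard error 0.14, adjusted p = 0.0466) for *Igtp* and 0.37 (standard error 0.13, adjusted p = 0.0365) for *Stat2*.

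For PI, *Ifih1* and *Tap1* were more positive in tolerized cells, by 1.27 (standard error 0.28, adjusted p = 0.0059) and 0.45 (standard error 0.13, adjusted p = 0.0142). The other 12 were more negative. The differences were −1.67 (standard error 0.38, adjusted p = 0.00721) for *Oas2*, −1.21 (standard error 0.38, adjusted p = 0.0375) for *Usp18*, −1.03 (standard error 0.17, adjusted p = 0.000276) for *Dtx3l* and −1 (standard error 0.30, adjusted p = 0.032) for *Gbp6*. They were −0.84 (standard error 0.18, adjusted p = 0.0017) for *Trim21*, −0.82 (standard error 0.25, adjusted p = 0.0281) for *Ifit2*, −0.82 (standard error 0.17, adjusted p = 0.00147) for *Irgm1* and −0.80 (standard error 0.21, adjusted p = 0.0111) for *Zbp1*. The smallest were −0.73 (standard error 0.13, adjusted p = 2e-04) for *Stat2*, −0.69 (standard error 0.17, adjusted p = 0.00488) for *Bst2*, −0.69 (standard error 0.14, adjusted p = 0.00107) for *Igtp* and −0.56 (standard error 0.19, adjusted p = 0.0403) for *Eif2ak2*. All NPI and TPI libraries were from males and all N0 and NAg libraries from females, and the part of sex in these values was tested only through T0 and TAg, as a term in the model.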

How the results depend on the processing

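In counts of members past the threshold, the requirement of a 2-fold change and a count above 50 left 1 in T0 against N0, 14 in NAg against N0, 14 in TAg against T0, 17 in NPI against N0, 0 in TAg against NAg, 12 in TPI against NPI, 1 for the difference in Ag response and 5 for that in PI response. With the marker scores as covariates the counts were 3 in T0 against N0, 17 in NPI against N0, 16 in TPI against T0, 15 and 9 for the differences in Ag and PI response, 10 in NPI against NAg and 24 in TPI against TAg. The sex term left 1 in T0 against N0 and 5 for the difference in Ag response, as did fitting only the groups compared for the latter (5). Leaving out N0 replicate 2 and NAg replicate 2 together, chosen after seeing the data, gave 15 in T0 against N0.

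Leaving out 1 library at a time gave 4 to 7 in T0 against N0, 24 to 28 in NAg against N0, 25 to 27 in TAg against T0, 25 to 30 in NPI against N0, 34 in each fit of TPI against T0, 7 to 12 in TAg against NAg and 21 to 24 in TPI against NPI. It gave 5 to 10 and 10 to 16 for the differences in Ag and PI response, 29 to 36 in NPI against NAg and 34 to 36 in TPI against TAg. Of 1638 member values in these fits, 1461 stayed past the threshold, 177 did not and 0 changed sign.

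Same-numbered libraries did not deviate together (correlations −0.195 to 0.11 over 27 pairs, 2 of them over 0.1, and 3 of 18 libraries correlated best with their own number). With the replicate block 27 members passed in NAg against N0, 27 in TAg against T0, 28 in NPI against N0, 35 in TPI against T0, 8 for the difference in Ag response and 16 for that in PI response, and 247 of 250 member values stayed past the threshold. Of the 250, 246 did so with DESeq2, 244 with its size factors, 233 without the filter, 231 with the groups compared alone, 224 with the sex term and 154 with the marker scores.

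The members' median changed sign to 0.065 in T0 against N0 without N0 replicate 3 and to −0.079 in TAg against NAg without NAg replicate 2, with or without N0 replicate 2. With the marker scores it was 0.143 in NPI against N0 and −0.269 in TAg against NAg, where it changed sign, −1.025 in TPI against NPI and −0.284 for the difference in PI response. Of the single members past the threshold, values changed sign only with the marker scores, and the cause was not tested. *Eif2ak2* was −0.187 in T0 against N0 and *Oas1a* −0.019 in TPI against NPI. In NPI against N0, *Ifit3* was 0.506, *Rtp4* 0.352 and *Dhx58* 0.075. In TPI against T0, *Ifit3* was 0.616, *Oas1a* 0.18, *Oasl1* 0.508, *Mx2* 0.046, *Ifi44* 1.041 and *Dhx58* 0.047. In NPI against NAg, *Usp18* was 0.513, *Ifit2* 0.771, *Ifit3* 1.051, *Oasl2* 0.319, *Mx1* 0.877, *Rtp4* 0.281, *Ifi44* 0.478 and *Dhx58* 1.09. In TPI against TAg, *Ifit3* was 0.939, *Oas1a* 0.178, *Oasl1* 0.205, *Mx1* 0.357, *Ifi44* 0.184, *Ddx58* 0.086 and *Dhx58* 0.146.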

Other observations

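Among the chemokine targets of IFN-γ, which are not members, *Cxcl9* had normalized counts of 0.991 to 4.18 in N0 and 527 to 1006 in NAg. In its list of 61 other tested interferon-stimulated genes, 27 rose and 23 fell with Ag in naive cells, where 32.1% and 33.4% of all tested genes did, and 27 rose and 20 fell in tolerized cells, where 29.9% and 29.8% did. With PI 16 rose and 30 fell in naive cells, where 28.6% and 32.7% of all tested genes did, and 13 rose and 37 fell in tolerized cells, where 32.0% and 36.3% did. *Oas1c*, another OAS gene, fell with Ag, with log2 fold changes of −3.70 (standard error 0.19, adjusted p = 1.01e-14) and −3.09 (standard error 0.18, adjusted p = 1.88e-13), where *Oas1a* did not pass the test (edgeR, Benjamini-Hochberg adjusted).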
